A study of Saccharomyces cerevisiae with 12 samples.

Results

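Yeast cells make purine nucleotides from a phosphorylated ribose, PRPP, on which a chain of ADE enzymes builds the ring of inosine monophosphate (IMP), the common precursor of AMP and GMP. Cells that take up adenine or recycle their own bases bypass this costly route through salvage enzymes. In budding yeast the ADE genes are known targets of the transcription factors Bas1 and Pho2, which act together when purine nucleotides run short, and Gcn4, the activator of amino acid synthesis genes, also acts on some of them.

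The mRNA levels of 10 genes of this pathway are described here, chosen by name: ADE4, ADE5,7, ADE8, ADE6, ADE2, ADE1, ADE13 and ADE17, which together lead from PRPP to IMP, ADE12, which starts the branch from IMP to AMP, and AAH1, an adenine deaminase of the salvage route. They are 10 of the 6347 features in the deposited table. All 10 were among the 5982 features tested, for which the mean of the 6 libraries had to reach 1 RPKM, a read count scaled to gene length and to the depth of the library.

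Both strains of the study were built in *Saccharomyces cerevisiae* D452-2, a laboratory strain, and carried the plasmid pRS316 with a GFP-tagged gene for cdt-1, a transporter of cellodextrins from the mould *Neurospora crassa*. The strain called NC held the gene with its endogenous codons and the strain called OPT a version recoded for the host, and cells of both were collected in mid-exponential growth. The study asked how the speed of translation elongation bears on the making of membrane proteins. Of its 12 libraries, the 6 mRNA libraries, 3 of NC and 3 of OPT, gave the values below. The 6 libraries of ribosome-protected mRNA were not analysed here, so no value is a rate of translation. The design text calls the libraries of a strain biological replicates. The sources used here do not say whether they came from separate transformants, nor whether the medium held adenine.

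The cdt-1 row of each strain stood at 506 to 567 RPKM in the 3 NC libraries and at 420 to 557 in the 3 OPT libraries, and the row of the other version was listed at 0 in all of them. Taken as plain RPKM, the steps between low values put depth at 24300000 to 45000000 reads per library. The values of every library sum to nearly the same total, as plain RPKM need not, so these depths are uncertain. Reads per gene follow from the steps alone. By them the least covered library held about 1060 reads of AAH1 and 2690 to 15900 reads of each of the other 9 genes. Counting error alone is then 3.1% for AAH1 and 0.79 to 1.9% for the others. PCR copies are not independent molecules, so these figures cover counting error only. NC replicate 3 stood apart from its group: across features its log2 values correlated at 0.979 and 0.985 with NC replicates 1 and 2, which correlated at 0.992 with each other, while the OPT libraries correlated at 0.991 to 0.996. Values without it are therefore also given for the 10 genes, and for other genes where leaving it out changed a call.

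Genes of the route from PRPP to IMP were in part lower in OPT, ADE5,7 most of all. On that route ADE2, ADE17 and ADE8 did not pass the test, and neither did ADE12 and AAH1 outside it. Of the 10 genes, 5 fell in OPT and none rose (limma, adjusted p under 0.05): ADE5,7, ADE6, ADE4, ADE1 and ADE13. Among all tested features 13.8% were called lower and 5.38% higher. Of all these calls 71.9% were lower, a share that became 58.9% with quantile normalization and 51.0% once library medians were set equal. With equal medians 491 of the 5982 tested features were called lower and 471 higher. Of the 10 genes 2, ADE5,7 and ADE6, were then lower and none higher. The median log2 difference, OPT minus NC, was -0.43 over the 10 genes, -0.51 over the 8 genes from PRPP to IMP and -0.06 over all tested features. All 3 OPT libraries lay below all 3 NC libraries in 7 of those 8 genes, the exception being ADE8, against 27.6% of all tested features. Summed over the 8 genes, the mRNA came to 1998, 1927 and 2756 RPKM in NC and to 1538, 1499 and 1558 in OPT. The NC sums were higher in every library, NC replicate 3 most of all, and the mean sum in OPT differed from that in NC by -31.2%, or by -22.0% without NC replicate 3. These are shares of each library's summed RPKM, so a smaller share and fewer molecules per cell cannot be told apart.

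**Figure D1:**
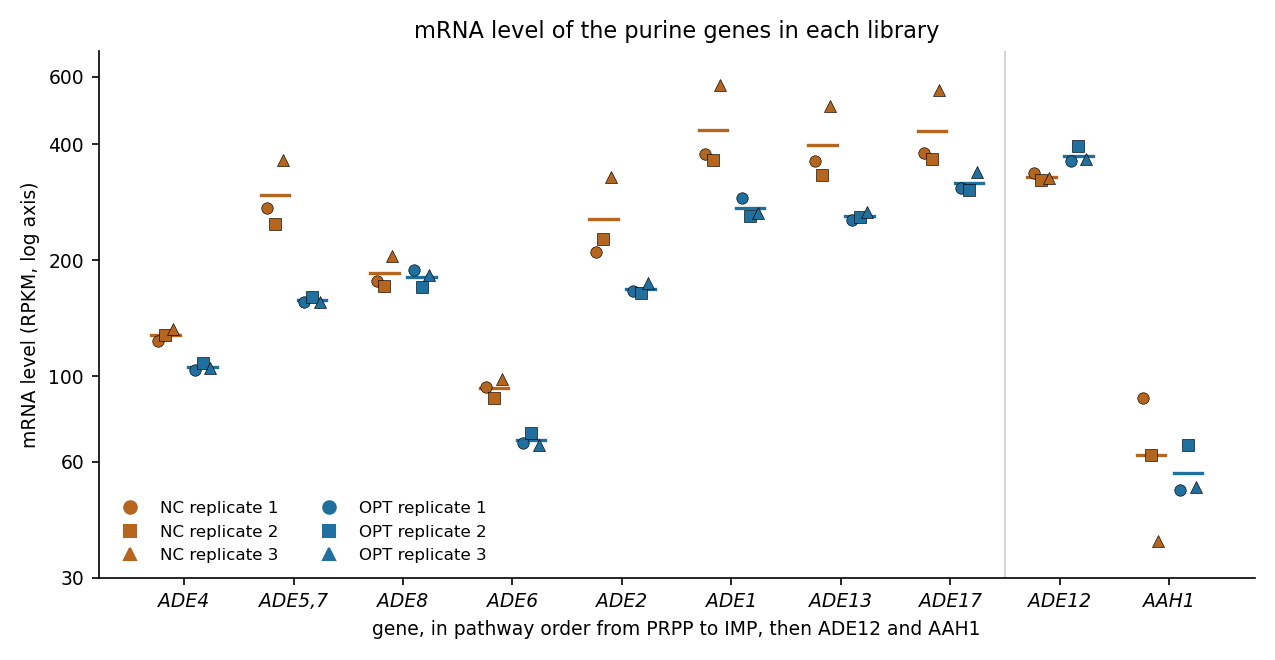
mRNA level in RPKM (log axis) of the 10 purine genes in each of the 3 NC (brown) and 3 OPT (blue) libraries, with a bar at each group's mean. NC replicate 3 (brown triangle) is the highest point of every gene from ADE4 to ADE17, at 570 RPKM for ADE1, and the lowest point of AAH1, at 37.4 RPKM.

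Levels per gene length differed several-fold within the pathway. In NC the mean ran from 437 ± 115 RPKM for ADE1 (SD, n = 3) down to 93.3 ± 5.39 for ADE6 and 62.6 ± 25.3 for AAH1. The order was ADE1, ADE17, ADE13, ADE12, ADE5,7, ADE2, ADE8, ADE4, ADE6 and AAH1. Neighbours in this order overlapped over their libraries from ADE1 to ADE2 and again between ADE6 and AAH1, so only ADE2, ADE8 and ADE4 stood clear of the next. In OPT the order was ADE12, ADE17, ADE1, ADE13, ADE8, ADE2, ADE5,7, ADE4, ADE6 and AAH1. There, ADE1 and ADE13, ADE8 and ADE2, and ADE6 and AAH1 overlapped, and the other neighbours did not. ADE5,7 thus stood above ADE2 and ADE8 by its mean in NC and below both in OPT. ADE12 moved from the fourth place to the first.

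ADE4 encodes the amidotransferase that commits PRPP to purine synthesis, and it fell by a small amount with little scatter. The gene (YMR300C) lies on chromosome XIII, 865559 to 867091 in build R64. It stood at 124, 128 and 133 RPKM in NC and at 104, 108 and 105 in OPT. The groups did not overlap and no library stood out. The log2 difference was -0.27 ± 0.06 (limma adjusted p = 0.0239, where ± is the standard error for every log2 difference and the SD for every mean level), or -17.2% in the mean. It was -0.24 without NC replicate 3 (adjusted p = 0.0242). The call ended without any 1 OPT library, without NC replicate 2, with quantile normalization and with library medians set equal (adjusted p up to 0.0918).

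The largest fall of the 10 was that of ADE5,7. Its bifunctional enzyme makes glycinamide ribotide, the product of the step after ADE4, and later closes the imidazole ring. The gene (YGL234W) lies on chromosome VII, 56482 to 58890. It stood at 274, 248 and 364 RPKM in NC and at 156, 161 and 156 in OPT. Every NC library lay far above the OPT libraries, which were within a few RPKM of each other. The log2 difference was -0.88 ± 0.14 (limma adjusted p = 0.00831), or -46.6% in the mean. Without NC replicate 3 it was -0.72 (adjusted p = 0.0021), and ADE5,7 was called under all 14 alternatives tried.

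ADE8 acts between the 2 reactions of the ADE5,7 enzyme, as the transformylase that adds a formyl group from folate to glycinamide ribotide. The gene (YDR408C) lies on chromosome IV, 1288215 to 1288859. It stood at 177, 172 and 206 RPKM in NC and at 189, 171 and 183 in OPT. The groups overlapped throughout. The log2 difference was -0.03, with a 95% interval from -0.24 to 0.19 (limma adjusted p = 0.863), and its sign turned to 0.08 with quantile normalization, 0.03 with equal library medians and 0.05 without NC replicate 3.

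ADE6 encodes the amidotransferase of the step after ADE8, by far the longest of these genes at 4077 nucleotides. The gene (YGR061C) lies on chromosome VII, 611889 to 615965. It stood at 93.6, 87.7 and 98.5 RPKM in NC and at 67.3, 71.2 and 66.5 in OPT. The groups lay well apart, and NC replicate 3 was only slightly above the others. ADE6 fell by 0.44 ± 0.07 on the log2 scale (limma adjusted p = 0.00761), and by 0.40 without NC replicate 3 (adjusted p = 0.00739). Like ADE5,7 it was called under all 14 alternatives.

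ADE2 and ADE1 follow on the closed ring. ADE2 encodes the carboxylase of aminoimidazole ribotide, whose loss gives yeast colonies their red pigment, and lies on chromosome XV (YOR128C, 564476 to 566191). It stood at 210, 227 and 330 RPKM in NC and at 167, 164 and 175 in OPT. No OPT library reached an NC library, but the NC libraries spread widely, with replicate 3 far above the other 2. The log2 difference was -0.57 ± 0.16 and did not pass the test (limma adjusted p = 0.0538). Without NC replicate 3 the difference shrank to -0.37 and passed (adjusted p = 0.013). ADE2 also passed without NC replicate 1 and with arrayWeights, and in no other alternative.

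ADE1, on chromosome I (YAR015W, 169375 to 170295), encodes the synthetase that joins aspartate to the ring and yields SAICAR. It stood at 378, 364 and 570 RPKM in NC and at 291, 261 and 266 in OPT. NC replicate 3 was again far the highest, and the groups did not overlap. ADE1 fell by 0.65 ± 0.17 on the log2 scale (limma adjusted p = 0.0431), and by 0.44 without NC replicate 3 (adjusted p = 0.0106).

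ADE13 encodes adenylosuccinate lyase, which acts both here, releasing AICAR, and in the last step to AMP. On chromosome XII (YLR359W, 844282 to 845730), it stood at 361, 334 and 503 RPKM in NC and at 255, 259 and 267 in OPT. The picture was that of ADE1, with no overlap and a high NC replicate 3. ADE13 fell by 0.59 ± 0.15 on the log2 scale (limma adjusted p = 0.0373), and by 0.42 without NC replicate 3 (adjusted p = 0.00991). The calls of ADE1 and ADE13 both ended without any 1 OPT library, with no filter on low values, with quantile normalization and with equal library medians, with adjusted p up to 0.138 and 0.119.

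ADE17 encodes an isozyme of the transformylase and cyclohydrolase that finishes IMP, and lies on chromosome XIII (YMR120C, 507502 to 509280). It stood at 381, 367 and 553 RPKM in NC and at 309, 304 and 340 in OPT. The OPT libraries were all below the NC libraries, though OPT replicate 3 came near NC replicate 2. The log2 difference of -0.42 ± 0.16 did not pass (limma adjusted p = 0.114), nor did it under any of the 14 alternatives (adjusted p from 0.0644). It was -0.24 without NC replicate 3.

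**Figure D2:**
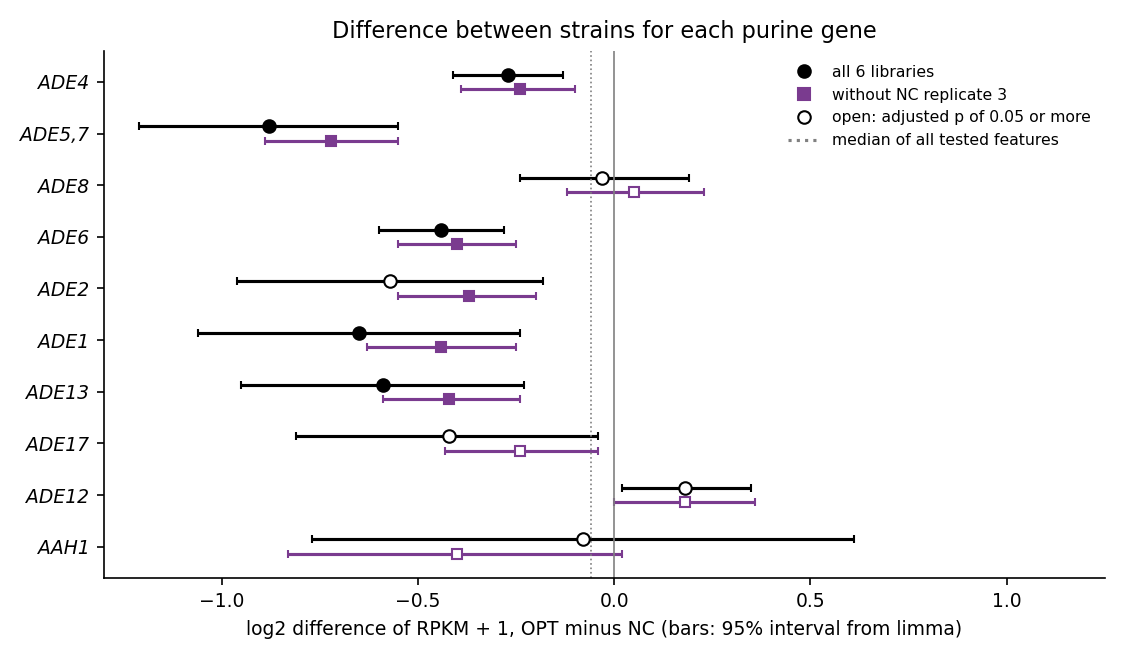
Log2 difference of RPKM + 1, OPT minus NC, of each gene over all 6 libraries (black circles) and without NC replicate 3 (purple squares), with unadjusted 95% intervals from limma. Filled symbols have an adjusted p under 0.05. ADE5,7 lies farthest to the left, at -0.88 and -0.72, the intervals of ADE8 span 0, and ADE12 lies to the right at 0.18.

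The other 2 genes of the 10 lie outside the chain to IMP. ADE12 encodes adenylosuccinate synthetase, which takes IMP towards AMP (YNL220W, chromosome XIV, 234413 to 235714). It stood at 336, 323 and 328 RPKM in NC and at 362, 395 and 366 in OPT. All OPT libraries were above all NC libraries, as in 13.1% of all tested features, and NC replicate 3 did not stand out. The log2 difference of 0.18 ± 0.07 did not pass (limma adjusted p = 0.106), and it was again 0.18 without NC replicate 3 (adjusted p = 0.111).

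AAH1 turns adenine into hypoxanthine, a salvage step, and lies on chromosome XIV (YNL141W, 359596 to 360639). It stood at 87.9, 62.4 and 37.4 RPKM in NC and at 50.6, 66.5 and 51.5 in OPT. NC held both the highest and the lowest library, the latter being replicate 3. The log2 difference was -0.08, with a 95% interval from -0.77 to 0.61 (limma adjusted p = 0.869). It was -0.40 without NC replicate 3 and 0.20 without NC replicate 1, and passed in neither.

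The genes from PRPP to IMP spread widely over the NC libraries, through NC replicate 3, and little over the OPT libraries. The median coefficient of variation of the 8 genes was 21.6% over the NC libraries, from 3.57% for ADE4 to 26.3% for ADE1, and 3.56% over the OPT libraries. For all tested features the median was 9.28% in NC and 5.04% in OPT. Without NC replicate 3 the 8 genes had a median of 3.69% in NC, against 5.62% for all features. NC replicate 3 was the highest of the 6 libraries for all 8 genes, which was so for 21.2% of tested features. Its excess over the mean of NC replicates 1 and 2 was uneven. It was 0.62, 0.59, 0.56, 0.53 and 0.48 on the log2 scale for ADE1, ADE2, ADE17, ADE13 and ADE5,7. It was 0.24, 0.12 and 0.08 for ADE8, ADE6 and ADE4. The same excess had a 95th percentile of 0.43 over all tested features. Relative to each gene's mean over the 6 libraries, the median of the 8 genes lay at 0.12, 0.11 and 0.62 in NC replicates 1, 2 and 3 and at -0.25, -0.29 and -0.24 in OPT.

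**Figure D3:**
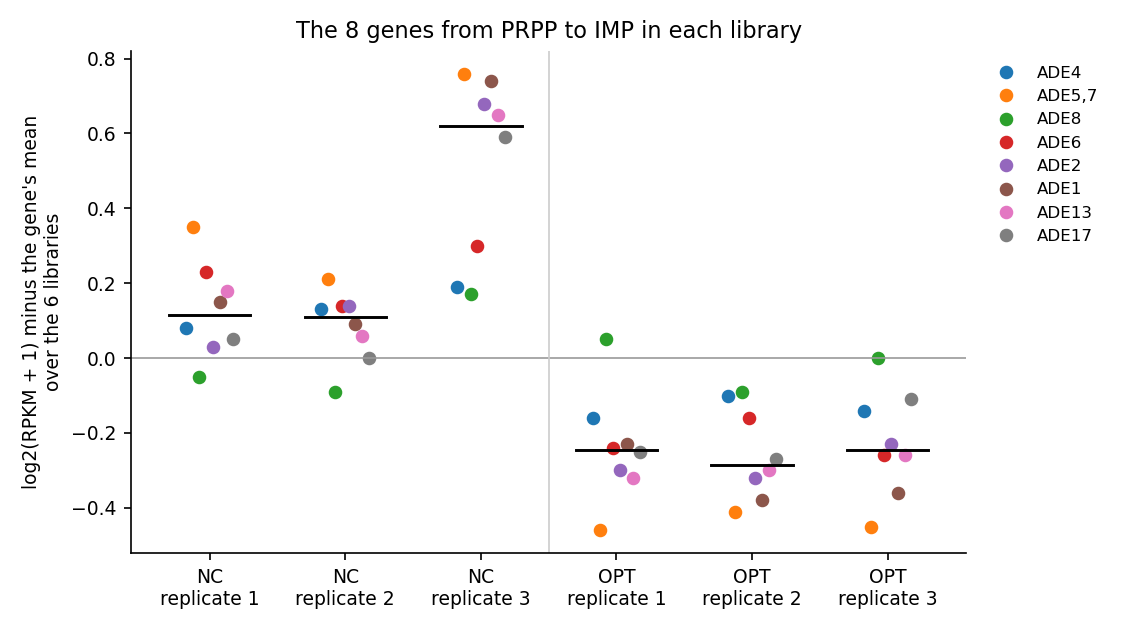
Each point is 1 of the 8 genes from PRPP to IMP in 1 library, as log2(RPKM + 1) minus the gene's own mean over the 6 libraries, and black bars are medians. The bar stands at 0.62 in NC replicate 3, at 0.12 and 0.11 in the other NC libraries and at -0.29 to -0.24 in OPT. ADE4, ADE6 and ADE8 stay lowest in NC replicate 3, at 0.19, 0.30 and 0.17.

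Without NC replicate 3 the 5 called falls were smaller, as were the differences of ADE2 and ADE17. ADE8 turned from -0.03 to 0.05, and AAH1 went from -0.08 to -0.40. The count was then 6 of 10 genes lower and none higher, with ADE2 added, and the median log2 difference of the 10 genes was -0.39. In the same comparison 25.1% of all tested features were called lower and 7.51% higher. In each of the comparisons without 1 OPT library, 2 of the 10 genes, ADE5,7 and ADE6, remained called. Of all tested features 5.55%, 3.80% and 5.67% were called lower without OPT replicates 1, 2 and 3.

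Pairs of genes that act on the same or neighbouring reactions were set against each other within libraries, as 3 ratios chosen after their values had been seen and therefore given as a description, with no test. ADE16 and ADE17 encode isozymes of the last step to IMP. The mean of ADE16 was 239 ± 18.6 RPKM in NC, and in OPT it was 261 ± 20.4 (SD, n = 3). It did not pass (log2 difference 0.13, limma adjusted p = 0.365). The ratio of ADE17 to ADE16 came to 1.75, 1.49 and 2.18 in NC and to 1.24, 1.21 and 1.19 in OPT, so that the share of ADE17 was lower in every OPT library. ADE13 to ADE12, the enzymes on either side of adenylosuccinate, stood at 1.07, 1.03 and 1.53 in NC and at 0.704, 0.654 and 0.729 in OPT. ADE5,7 to ADE8 stood at 1.55, 1.45 and 1.77 in NC and at 0.824, 0.943 and 0.855 in OPT. Each ratio separated the strains without overlap, also without NC replicate 3. The mean log2 ratios differed by -0.55, -0.78 and -0.86, OPT minus NC, and by -0.41, -0.60 and -0.78 without NC replicate 3. ADE16 and ADE17 are close paralogs, and the sources used here do not say how reads that fit both were divided, so their split is uncertain.

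The regulators of the pathway did not pass the test at the mRNA level. BAS1, the Myb-type activator of ADE genes, stood at 39.5, 38.3 and 21.8 RPKM in NC and at 28.9, 31.6 and 28.0 in OPT. NC replicate 3, the library with the most ADE mRNA, thus had the least BAS1 mRNA. The log2 difference of BAS1 was -0.12 (limma adjusted p = 0.735), and -0.39 without that library (adjusted p = 0.00969). PHO2, its homeodomain partner, stood at 31.1 ± 1.22 and 31.5 ± 1.42 RPKM (adjusted p = 0.863). GCN4 stood at 1319, 1215 and 945 RPKM in NC and at 1515, 1563 and 1557 in OPT. All OPT libraries were higher, with NC replicate 3 lowest, but the log2 difference of 0.43 did not pass (limma adjusted p = 0.0626). It passed in 4 of the 14 alternatives, at 0.29 without NC replicate 3 (adjusted p = 0.0392). The others were without NC replicate 1, with equal library medians and with arrayWeights (adjusted p = 0.0327, 0.0386 and 0.0264). The mRNA of GCN4 does not show the amount of the factor, which yeast is known to set mainly by translation.

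Upstream of ADE4, none of the 5 PRPP synthetase genes was called, with log2 differences from -0.14 to -0.02 and a median of -0.11. Over all tested features 13.8% were called lower and 5.38% higher, so no call among 5 genes lies near those shares. The median was -0.22 without NC replicate 3, and PRS5 was then called lower (log2 difference -0.22, limma adjusted p = 0.0392). So were 25.1% of all tested features in that comparison. The most abundant, PRS1 and PRS3, stood at 153 ± 26.1 and 136 ± 20.2 RPKM in NC and at 149 ± 7.86 and 125 ± 6.89 in OPT. In contrast to the 8 genes from PRPP to IMP, 4 of the 5 were lowest in NC replicate 3. The share of all tested features lowest in that library was not counted. That library lay above the mean of NC replicates 1 and 2 in 38.9% of all tested features, so a lower value there was the commoner case.

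Beyond IMP, 2 of 10 genes fell and 1 rose, with a median log2 difference of -0.10. Over all tested features 13.8% were called lower and 5.38% higher, so the counts of this list lie near those shares. IMD2, an isozyme of IMP dehydrogenase on the way to GMP, rose from 42.2 ± 10.2 to 73.2 ± 1.89 RPKM (log2 difference 0.81, limma adjusted p = 0.0149). IMD2 has near-identical paralogs, so its value is uncertain, and its call ended without any 1 OPT library (adjusted p up to 0.0616). GUK1, the guanylate kinase, fell from 522 ± 35.4 to 351 ± 5.55 RPKM (log2 difference -0.57, adjusted p = 0.00479). ADK1, the main adenylate kinase, fell by 0.24 on the log2 scale (adjusted p = 0.049), a call that held in 7 of the 14 alternatives and not without NC replicate 3 (adjusted p = 0.0514). GUA1, the GMP synthetase, stood at 204 ± 50.0 and 138 ± 19.4 RPKM and did not pass (adjusted p = 0.082), but it passed without NC replicate 3 (log2 difference -0.67, adjusted p = 0.0312) and with arrayWeights.

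The folate route that supplies formyl groups for the ring gave 3 falls among 10 genes and no rise, with a median of -0.13. Lower calls made up 13.8% of all tested features. MTD1, a methylenetetrahydrofolate dehydrogenase, stood at 169, 175 and 282 RPKM in NC and at 121, 114 and 124 in OPT. NC replicate 3 was again the highest and the groups did not overlap. MTD1 fell by 0.76 on the log2 scale (limma adjusted p = 0.0371), and by 0.52 without NC replicate 3 (adjusted p = 0.00413). Its call was lost in 7 of the 14 alternatives, among them those without NC replicate 2 or an OPT library, at adjusted p values up to 0.123. DFR1, dihydrofolate reductase, fell from 115 ± 7.43 to 71.2 ± 5.28 RPKM (log2 difference -0.68, adjusted p = 0.00365), and SHM1, the mitochondrial serine hydroxymethyltransferase, from 175 ± 7.72 to 124 ± 0.423 (log2 difference -0.49, adjusted p = 0.00426). ADE3, the trifunctional C1-tetrahydrofolate synthase, stood at 337 ± 1.00 and 380 ± 16.8 RPKM and did not pass (log2 difference 0.17, adjusted p = 0.113). All OPT libraries were above all NC libraries, as in 13.1% of all tested features. Of the 14 alternatives, ADE3 passed only with no filter on low values (adjusted p = 0.0475).

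In the list of salvage, uptake and breakdown, 5 of 14 genes fell and 1 rose, with a median of -0.17. The shares over all tested features were 13.8% lower and 5.38% higher. FCY22, named as a relative of the purine and cytosine permease FCY2, rose from 11.4 ± 0.569 to 26.8 ± 1.44 RPKM (log2 difference 1.16, limma adjusted p = 0.00029), although reads shared with its close relatives make the value uncertain. FCY2 itself, at 427 ± 82.2 and 355 ± 40.0 RPKM, did not pass (adjusted p = 0.306). Without NC replicate 3, FCY2 and another relative, FCY21, were called lower (log2 differences -0.41 and -0.28, adjusted p = 0.0441 and 0.0376). That comparison called 25.1% of all tested features lower. HAM1, which clears deaminated purine nucleotides, fell from 136 ± 4.33 to 90.4 ± 3.94 (log2 difference -0.58, adjusted p = 0.00286), and ADO1, adenosine kinase, from 541 ± 21.3 to 377 ± 9.41 (log2 difference -0.52, adjusted p = 0.00479). FCY22, HAM1 and ADO1 were called under all 14 alternatives. HPT1, which salvages hypoxanthine and guanine, fell by 0.55 (adjusted p = 0.0495), and 10 of the 14 alternatives ended that call, among them the one without NC replicate 3 (adjusted p = 0.0523).

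**Figure D4:**
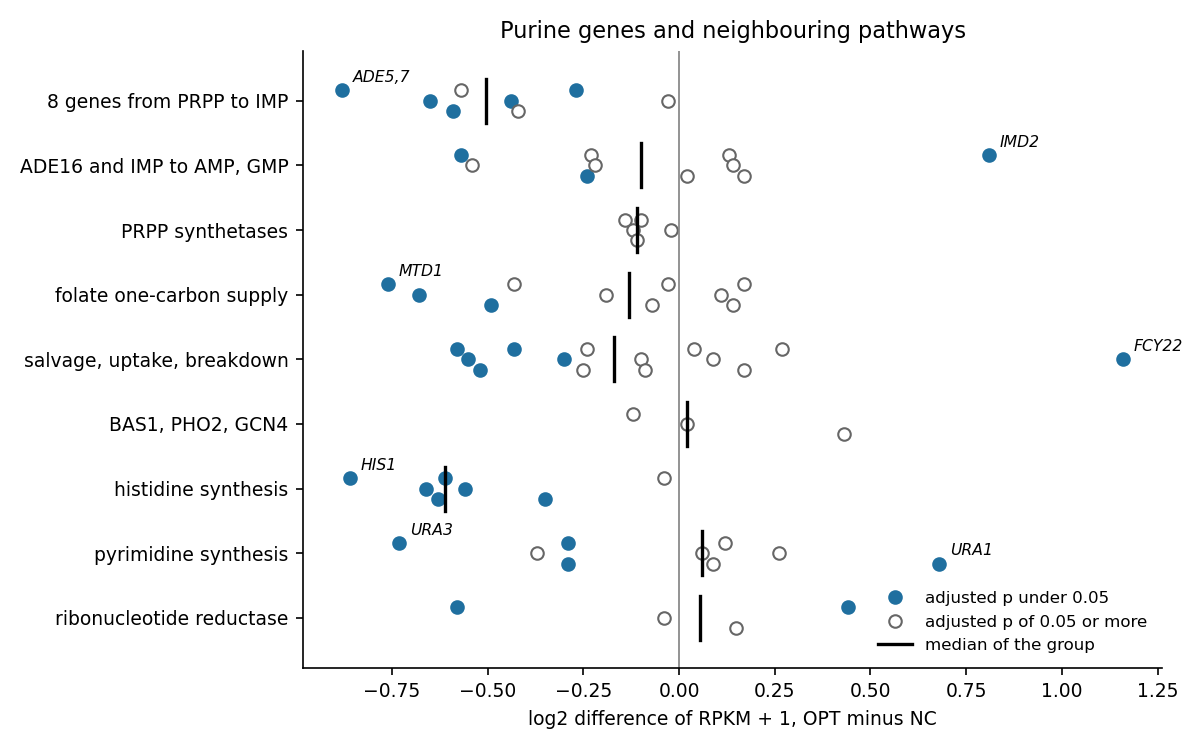
Log2 difference of RPKM + 1, OPT minus NC, of each gene (points, filled where adjusted p is under 0.05) in the chain from PRPP to IMP and in the other lists, with a black bar at each list's median. The chain has its median at -0.51 and histidine synthesis at -0.61, and the other lists have medians between -0.17 and 0.06. FCY22 lies farthest to the right at 1.16.

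Histidine synthesis also starts from PRPP, returns AICAR to the purine route and shares Bas1 as an activator. Of its 7 genes 6 fell, against 13.8% of all tested features, and none rose, with a median of -0.61. HIS1, the committing step, fell from 852 ± 49.2 to 467 ± 22.3 RPKM (log2 difference -0.86, limma adjusted p = 0.00134). HIS5, HIS4 and HIS7 fell by 0.66, 0.63 and 0.61. These genes differed from the ADE chain in NC replicate 3, which was the highest library for none of the 7 and for all 8 of the ADE genes from PRPP to IMP. Without OPT replicates 1, 2 and 3 in turn, 4, 3 and 3 of the histidine genes were called lower. Of all tested features 5.55%, 3.80% and 5.67% were. HIS7 lost its call in each of these comparisons (limma adjusted p up to 0.0586). Pyrimidine synthesis, the other nucleotide route, gave 3 falls and 1 rise among 9 genes (13.8% and 5.38% of all tested features), with a median of 0.06. The median was -0.10 without NC replicate 3 and the falls were then 4, with URA7, a CTP synthase, added (log2 difference -0.69, limma adjusted p = 0.0207). Lower calls over all tested features also went up in that comparison, from 13.8% to 25.1%. URA1, dihydroorotate dehydrogenase, rose from 584 ± 54.4 to 936 ± 57.4 RPKM (log2 difference 0.68, adjusted p = 0.00615). URA3, which is also the marker of pRS316, fell by 0.73, and URA5 and URA6 by 0.29 each, of which the latter 2 lost their calls without any 1 OPT library (adjusted p up to 0.118 and 0.096).

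Outside the 10 genes, the features with a pattern most like the mean of the 8 genes from PRPP to IMP were in none of the lists above. By the root mean square difference of log2 deviations, the nearest of 5520 features that averaged 10 RPKM or more were ALG6, an alpha-1,3-glucosyltransferase, DPM1, dolichol phosphate mannose synthase, MSP1, a mitochondrial sorting protein, FAS1, the beta subunit of fatty acid synthase, and NUS1, a prenyltransferase, at 0.040, 0.044, 0.048, 0.054 and 0.055. The closest of the 8 genes themselves, ADE17 and ADE13, lay at 0.074 and 0.075 from the mean of which they are part, and ADE8 lay at 0.24. ALG6, for example, stood at 93.5, 89.0 and 114 RPKM in NC and at 68.6, 71.8 and 71.8 in OPT, again with NC replicate 3 highest. A small distance over 6 libraries, of which 1 stands apart, describes these libraries only.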

How the data were processed

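The authors deposited a table of normalized RPKM for every feature in every library, per the file headers, to 2 decimals and with a sum of 999285 to 999421 per library, so values are shares and a rise of abundant transcripts lowers the rest. The submitters' processing notes name CASAVA 1.8.0, Bowtie, TopHat and build R64. Counting, strand and the handling of multiply mapping reads are not described in these sources. Without strand, overlapping genes cannot be separated, but RefSeq lists no gene overlapping any of the 10.

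After 3 emptied lines and 1 repeated, shifted row of ZWF1 were left out, 6347 features remained, of which 5992 matched a RefSeq locus of R64. Coordinates are RefSeq's gene spans. Depth came from values worth up to 20 reads in genes of up to 600 nucleotides. Times gene length, 98.2 to 100.0% of them were whole multiples of a step per library within 0.15 of a read. No count test was run.

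Values were tested as log2(RPKM + 1), which understates changes of low genes, with limma 3.58.1 in R 4.3.3 (eBayes with a trend, two-sided, no covariates) over features that averaged 1 RPKM or more, adjusted by Benjamini-Hochberg over all of them, with the 2 cdt-1 rows fitted but not counted. A call is an adjusted p under 0.05. The pipeline was tested on simulated data with independent noise for each gene and no library that stood apart. That test therefore does not cover a library like NC replicate 3. Tables used Python 3.11.15 and pandas 2.3.3. The 14 alternatives were quantile normalization, equal library medians, a filter of 10 RPKM or none, a pseudocount of 0.1, a common prior variance, arrayWeights, protein-coding features only and leaving out each library. The genes, lists and tests were chosen with earlier results of these data known. All 10 genes are named, and of the other lists up to 4 called genes by size or the 2 most abundant where none was called, with BAS1, PHO2, GCN4, ADE16, ADE3 and URA3 always included. GUA1, FCY2, FCY21, PRS5 and URA7 were added after their values were seen. Libraries of a strain bear no shared numbers or batches in the labels.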

Additional observations from a re-analysis of the deposited data

How the results depend on the processing

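No paired analysis was possible because the labels give the libraries no replicate numbers, and the numbers used here follow the order of the samples. No called result changed direction. Of the 10 genes, 3 were lower with no filter on low values and 2 with quantile normalization or equal library medians, against 5, and 2 to 6 without 1 library. Over all features, lower calls came to 812 with no filter, which tested more features. They came to 602 with quantile normalization and 491 with equal medians, against 823. ADE1 and ADE13 lost their calls at log2 differences of -0.65 and -0.59 with no filter, -0.63 and -0.57 with quantile normalization and -0.59 and -0.53 with equal medians, and ADE4 at -0.18 and -0.21 in the latter 2. ADE2 passed at -0.45 with arrayWeights. Without 1 library the differences ranged from -0.77 to -0.44 for ADE1, -0.71 to -0.42 for ADE13, -0.30 to -0.24 for ADE4 and -0.70 to -0.37 for ADE2. With arrayWeights the lower calls over all features came to 1262. They ranged from 227 to 1503, and the higher calls from 134 to 450, without 1 library.

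With quantile normalization, 2 salvage genes, 1 pyrimidine gene and 0 ribonucleotide reductase genes were lower and 2 pyrimidine genes higher. With equal medians, 1 gene beyond IMP, 3 salvage genes and 1 pyrimidine gene were lower, and 1 regulator and 2 pyrimidine genes higher. With arrayWeights, 1 regulator and 2 pyrimidine genes were higher, and with no filter 1 one-carbon gene, ADE3. Without 1 library, lower calls ranged from 1 to 2 beyond IMP, 0 to 1 for PRPP synthetases, 2 to 6 for salvage, 0 to 1 for regulators, 3 to 6 for histidine, 1 to 4 for pyrimidine and 0 to 1 for ribonucleotide reductase, and higher calls from 0 to 1 beyond IMP, for regulators and for ribonucleotide reductase. The causes of these changes were not tested. Counting error was at most 3.1% for the 10 genes and 4.9% for the other lists in the least covered library.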

Other observations

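Ribonucleotide reductase turns ribonucleotides of both classes into the precursors of DNA. Of its 4 genes 1 was called lower and 1 higher, where 13.8% and 5.38% of all tested features were. RNR1, the large subunit, fell from 242 ± 47.0 to 160 ± 5.13 RPKM (SD, n = 3, log2 difference -0.58, limma adjusted p = 0.0269). RNR2, a small subunit, rose from 204 ± 15.0 to 277 ± 6.78 RPKM (log2 difference 0.44, adjusted p = 0.0105). RNR4 and RNR3 did not pass (log2 differences 0.15 and -0.04). RNR1 lost its call when NC replicate 2 or an OPT library was left out and under quantile normalization, at adjusted p values up to 0.104, and RNR2 without OPT replicate 2 (adjusted p = 0.0577).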
